A study of Mus musculus with 2 samples.

Results

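The antioxidant and glutathione genes described here are 38 genes, picked by symbol from the 21829 genes with values in C2C12 cells, and all 38 were found. They cover the Nrf2 regulator and its inhibitor, the quinone reductase and heme oxygenase that Nrf2 induces, the enzymes that make and recycle glutathione, the thioredoxins and peroxiredoxins, the superoxide dismutases and catalase, the glutathione peroxidases, the glutathione S-transferases and ferritin. C2C12 is an immortalized mouse myoblast line. One library came from WT cells and 1 from Gne KO cells, which carry an indel in Gne, the gene for the first enzyme of sialic acid synthesis, made with Cas9 and a guide plasmid and isolated as single clones. Both lines were grown under the same conditions, in DMEM with serum and gentamicin, with no other treatment or allele named. Each line is represented by 1 library, so no value below has a replicate error, no test was possible, and what belongs to the clone and what belongs to the loss of Gne cannot be told apart.

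Values were read as FPKM, a unit that was inferred and is not named with them. FPKM scale fragments by transcript length and by depth, so that levels can be compared between genes if the unit holds. A change is log2((KO + 1)/(WT + 1)), a scale that understates changes of low genes, and a gene past the filter has a mean of at least 1 FPKM. The edited gene itself was not lower, with Gne at 6.67 FPKM in WT against 7.34 in the library labelled KO, and since an indel need not remove the RNA this value does not check the label. Summed values were 568543 in WT against 574253 in the library labelled KO, and the number of reads is unknown. In bulk RNA, fewer cells of a type and less RNA per cell cannot be told apart.

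The libraries differed in the markers of their own lineage. Of 14 myoblast markers 10 passed the filter, 5 of them lower and 5 higher. More than 2-fold lower were 4 and more than 2-fold higher was 1, where all genes past the filter gave 3.43% and 2.84%. The 14 summed to 350 FPKM in WT against 182 in the library labelled KO. Myod1, which specifies myoblasts, was 59.97 FPKM in WT, whereas the library labelled KO listed it at 0. Myf5 went the other way, at 9.14 FPKM in WT against 20.3 in the library labelled KO, a change of 1.07. Pax7 was listed at 0 in both. All 4 of the 8 fibroblast markers that passed were higher, 2 of them by more than 2-fold, with a sum of 313 against 988 FPKM, while Thy1, Lum and Fap were listed at 0 in both. Leukocyte markers summed to 22.7 and 20.02 FPKM, with Ptprc, Adgre1, Itgam and C1qa at 0 in both, endothelial markers to 0.010 and 0.080, and adipocyte markers to 10.2 and 9.63, nearly all of it Pparg. The part of this shift between the libraries in the antioxidant values was not tested.

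Cells meet hydrogen peroxide, lipid peroxides and electrophiles with several thiol systems. Nrf2, encoded by Nfe2l2, is held low by Keap1, which presents it for degradation, and when Keap1 is modified by electrophiles Nrf2 accumulates and binds antioxidant response elements beside genes for glutathione synthesis, thioredoxin recycling, quinone reduction and glutathione conjugation. Because this switch acts on the Nrf2 protein, the RNA of its target genes is the usual readout of it. Ferritin holds the iron that would otherwise generate radicals.

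The promoters of several members carry the core of the antioxidant response element, TGACNNNGC on either strand, within 250 bases before to 50 bases after the start site. RefSeq windows on GRCm38.p6 were matched by symbol for 32 of the 38 members, and 8 of those held the core on either strand (8 of 40 windows, since some genes have several). Among all 32851 windows of that length 12.4% held it, and among the 10719 windows of genes past the filter 14.3%. The related AP-1 site TGANTCA was in 4 of the 40 member windows, 10.0%, against 7.81% of all windows and 4.88% of those of genes past the filter. The 5 stretches printed next are each of 100 bases, on the strand of the gene, with the core in capitals. All come from members with a core upstream of the start, chosen from textbook Nrf2 biology or because their values differed most.

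Gclm, chr3:122245378-122245477, plus strand: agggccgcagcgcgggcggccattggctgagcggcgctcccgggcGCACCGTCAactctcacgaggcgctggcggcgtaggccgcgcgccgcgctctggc
Prdx1, chr4:116685421-116685520, plus strand: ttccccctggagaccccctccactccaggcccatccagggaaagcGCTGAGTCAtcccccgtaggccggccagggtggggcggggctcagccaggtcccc
Txnrd1, chr10:82859069-82859168, plus strand: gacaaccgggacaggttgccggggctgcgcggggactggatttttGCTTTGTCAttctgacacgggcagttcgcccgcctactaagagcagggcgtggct
Sod1, chr16:90220661-90220760, plus strand: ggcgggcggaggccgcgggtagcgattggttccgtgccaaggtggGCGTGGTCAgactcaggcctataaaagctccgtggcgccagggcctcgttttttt
Gstm5, chr3:107895754-107895853, plus strand: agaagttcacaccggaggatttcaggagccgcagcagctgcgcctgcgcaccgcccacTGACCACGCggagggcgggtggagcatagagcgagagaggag

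In Gclm, Prdx1, Txnrd1 and Sod1 the core lies on the opposite strand, so its reverse complement is shown, and in Prdx1 the core overlaps an AP-1 site. The other 3 members with a core were Nfe2l2 and Mgst1, where it lay before the start, and Srxn1, where it lay after. Values of the 8 ran from -0.59 for Sod1 to 0.51 for Gstm5 with a median of -0.02. Over the 23 members past the filter whose window held no core the median was -0.09. Among these were Nqo1, Slc7a11, Ftl1 and Fth1, and in Txnrd1 only 1 of 3 windows held the core. Hmox1, Gclc, Gsr, Prdx6, Sod3 and Gsta4 had no window, and the median of these 6, which include 2 of the 3 members more than 2-fold lower, was -0.52, so the medians with and without a core do not cover them. A match of letters is no evidence of binding, and elements farther from the start were not searched.

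Of the 38 members, 37 passed the filter. More than 2-fold lower in the library labelled KO were 3, Hmox1, Gsta4 and Gsta1, which is 8.11% of the 37 against 3.43% of all 10542 genes past the filter. None was more than 2-fold higher, where all genes gave 2.84%. The median change was -0.13 over members and 0.01 over all genes, with 24 members lower and 13 higher, and all genes were 49.3% lower. Housekeeping genes had a median of -0.10, with 10 of 12 lower, close to the median of the members. Members were also well above the usual level, with a median of 75.9 FPKM in WT against 15.3 over all genes past the filter, and at or above 50 FPKM, a level chosen after the values were seen, the median change was 0.02 over 1853 genes and -0.09 over 22 members.

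**Figure D1:**
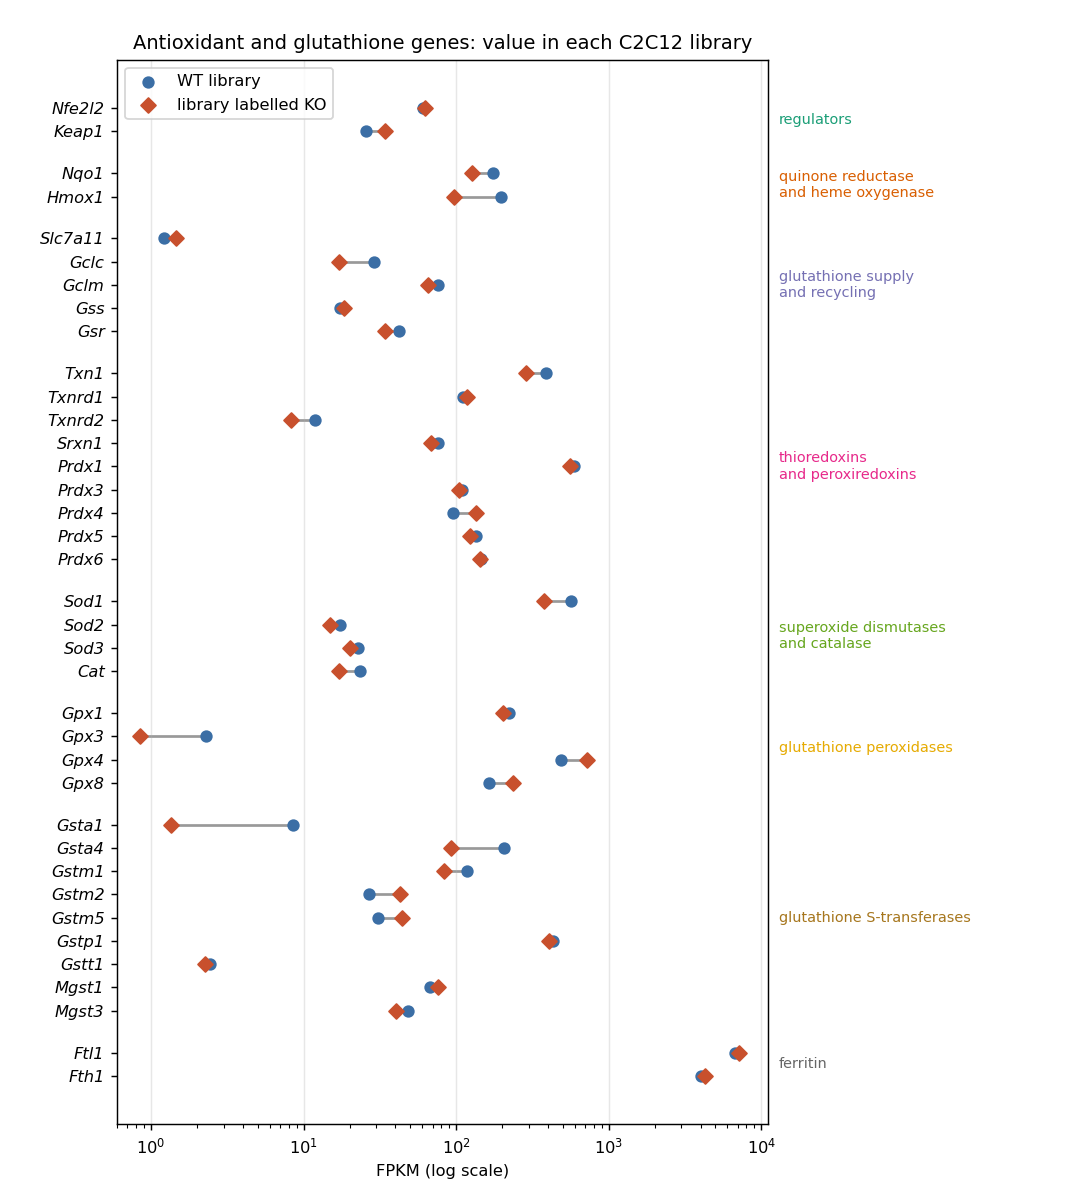
Value of each of the 37 members past the filter in FPKM on a log axis, with the WT library as circles and the library labelled KO as diamonds, 1 library each, grouped by role. Most pairs lie close together, the ferritin genes stand highest, from 4002 to 7148 FPKM, and the widest gaps belong to Gsta1, Gpx3, Gsta4 and Hmox1.

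The changes of the members overlapped those of all genes, with more of them toward lower values. The interquartile range of the change ran from -0.44 to 0.09 over members and from -0.21 to 0.23 over all genes, with 14 members below the range of all genes, 17 within it and 6 above. At 1.5-fold, a size chosen after the values were seen, 6 members were lower and 1 was higher, against 7.5% and 7.68% of all genes, and the 6 make up 16.2% of the 37. The 6 were Hmox1, Gsta4, Gsta1, Gclc, Gpx3 and Sod1, and the 1 was Gstm2.

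**Figure D2:**
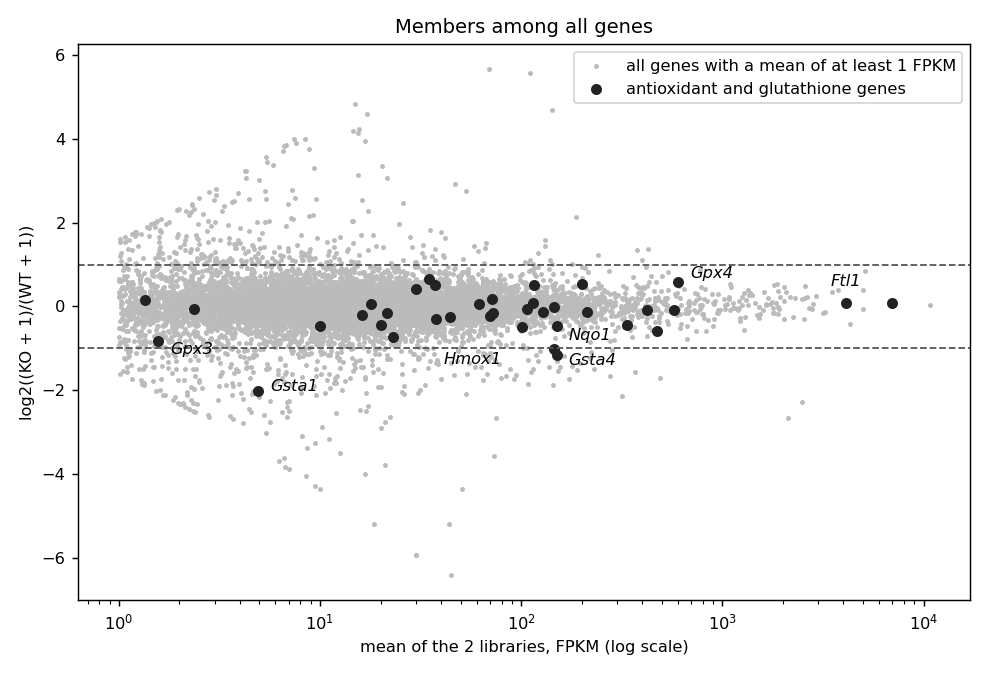
Change of each gene past the filter, log2((KO + 1)/(WT + 1)), against its mean in FPKM on a log axis, with all 10542 genes in grey and the 37 members in black, and dashed lines at 2-fold. The members lie within the cloud of all genes, mostly at high levels, and Gsta1, Gsta4 and Hmox1 are below the lower line.

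Of the regulators, Nfe2l2 was close to level and Keap1 was higher. Nfe2l2, the transcription factor, was 60.3 FPKM in WT against 62.5 in the library labelled KO, a change of 0.05. Keap1, the adaptor that directs Nrf2 to degradation, was 25.6 and 34.4 FPKM, a change of 0.41. The ratio of Nfe2l2 to Keap1 was therefore 2.36 in WT against 1.82 in the library labelled KO. Keap1 lies on chromosome 9, where 51 of its 58 neighbors were also higher (neighbors being all genes that passed and lie no more than 5 Mb away), with a median of 0.30, and above them Keap1 kept 0.11.

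Hmox1 and Nqo1, classic Nrf2 targets, were lower. Of other members tied to Nrf2, Gclc was also lower at -0.74. Gclm at -0.22, Srxn1 at -0.15, Prdx1 at -0.09, Txnrd1 at 0.08, Ftl1 and Fth1 at 0.09 and Slc7a11 at 0.15 differed less. Hmox1, the inducible heme oxygenase that opens heme to biliverdin, iron and carbon monoxide, was 196 FPKM in WT against 96.5 in the library labelled KO, 2.03-fold lower, a change of -1.02. It lies on chromosome 8 from 75820241 to 75827217 in GRCm39, and its 74 neighbors had a median of -0.01, with 35 higher and 39 lower. The adjacent genes were not lower to this extent, Tom1 at 0.33, Hmgxb4 at -0.08 and Mcm5 at -0.10. Nqo1, which reduces quinones fully and so spares the cell the reactive semiquinone, was 174 and 126 FPKM, a change of -0.46. Its neighbors, also on chromosome 8, were higher with a median of 0.28, so that Nqo1 was -0.74 relative to them.

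Of the RNAs for glutathione synthesis, that of Gclc differed most. Gclc, the catalytic subunit of glutamate-cysteine ligase, was 29.1 FPKM in WT against 17.1 in the library labelled KO, 1.70-fold lower, a change of -0.74. Gclm, the modifier subunit that lowers the amount of substrate the enzyme needs, was 75.7 and 65.0 FPKM, a change of -0.22, or -0.48 relative to a neighbor median of 0.26, and the ratio of Gclm to Gclc was 2.60 in WT and 3.81 in the other library. Gss, which adds glycine in the last step, was 17.4 and 18.3 FPKM, and Gsr, which reduces oxidized glutathione with NADPH, was 41.9 and 33.9 FPKM. Slc7a11, the light chain of the cystine importer, was low in both libraries at 1.22 and 1.46 FPKM, a change of 0.15, which turned to -0.15 relative to its neighbors.

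The 9 thioredoxin and peroxiredoxin members summed to 1662 FPKM in WT against 1543 in the library labelled KO, a change of -7.15%, with 7 lower and 2 higher. Txn1, cytosolic thioredoxin, was 386 and 285 FPKM, a change of -0.44, and Txnrd2, the mitochondrial reductase, was 11.8 and 8.26 FPKM, a change of -0.47. Txnrd1, the cytosolic reductase, was 111 and 118 FPKM, a change of 0.08, but its neighbors on chromosome 10 had a median of 0.37. Srxn1, which restores overoxidized peroxiredoxins, was 75.9 and 68.2 FPKM. The sum leaves out abundant genes of the same system that are not among the 38. Txn2, mitochondrial thioredoxin, named after its values were seen, was 247 and 159 FPKM, a change of -0.64 with a neighbor median of -0.38, and Prdx2 is given next.

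Among peroxiredoxins, which reduce peroxides through a reactive cysteine, 4 of the 5 members differed by little and Prdx4 was higher. Prdx1 was 592 and 557 FPKM, Prdx3 was 110 and 105, Prdx5 was 134 and 123, and Prdx6 was 146 and 144, with changes between -0.13 and -0.02. Prdx4, which couples peroxide to disulfide formation in the endoplasmic reticulum, was 95.02 and 135 FPKM, a change of 0.51 against a neighbor median of 0.09. Prdx2, a cytosolic form and not one of the 38, differed far more. It was 751 FPKM in WT against 230 in the library labelled KO, a change of -1.70, and its neighbors on chromosome 8 had a median of -1.46.

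The values of all 4 superoxide dismutase and catalase genes were below those in WT, by less than 2-fold, and the changes of Sod2 and Sod3 lay within the interquartile range of all genes. Sod1, the cytosolic copper and zinc enzyme and the most abundant of the 4, was 567 FPKM in WT against 376 in the library labelled KO, 1.51-fold lower, a change of -0.59. Its neighbors on chromosome 16 had a median of -0.30, with 36 of 43 lower, and relative to them Sod1 was -0.29. Sod2, the mitochondrial manganese enzyme, was 17.3 and 14.9 FPKM, a change of -0.20, and Sod3, the secreted form, was 22.8 and 20.2 FPKM, a change of -0.16. Cat, which splits hydrogen peroxide in peroxisomes, was 23.3 and 17.0 FPKM, a change of -0.43. The 4 genes summed to 630 and 428 FPKM, a change of -32.1%, most of it Sod1.

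Glutathione peroxidases went the other way in sum, from 874 FPKM in WT to 1164 in the library labelled KO, 33.3% more. Gpx4, the selenoenzyme that reduces lipid hydroperoxides within membranes and protects against ferroptosis, was 486 and 725 FPKM, a change of 0.58. It too lies on chromosome 10, where 125 of its 143 neighbors were higher with a median of 0.39, and above them it kept 0.19. Of its 75-base words 62.5% occur in transcripts of other genes, among them Gm63662 and the pseudogene Gpx4-ps2, so its value and the sum may hold reads of these. Gpx8, a membrane peroxidase of the endoplasmic reticulum, was 164 and 236 FPKM, a change of 0.53 with a neighbor median of -0.0031. Gpx1, the abundant cytosolic form, was 222 and 203 FPKM, a change of -0.13. Gpx3, the secreted plasma form, was low at 2.29 and 0.849 FPKM, a change of -0.83 with the pseudocount of 1 and -1.33 with 0.1. Gpx7 was listed at 0 in both libraries. Thus both detected peroxidases of the endoplasmic reticulum, Prdx4 and Gpx8, were higher by similar amounts, a pairing seen after the values were known.

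**Figure D3:**
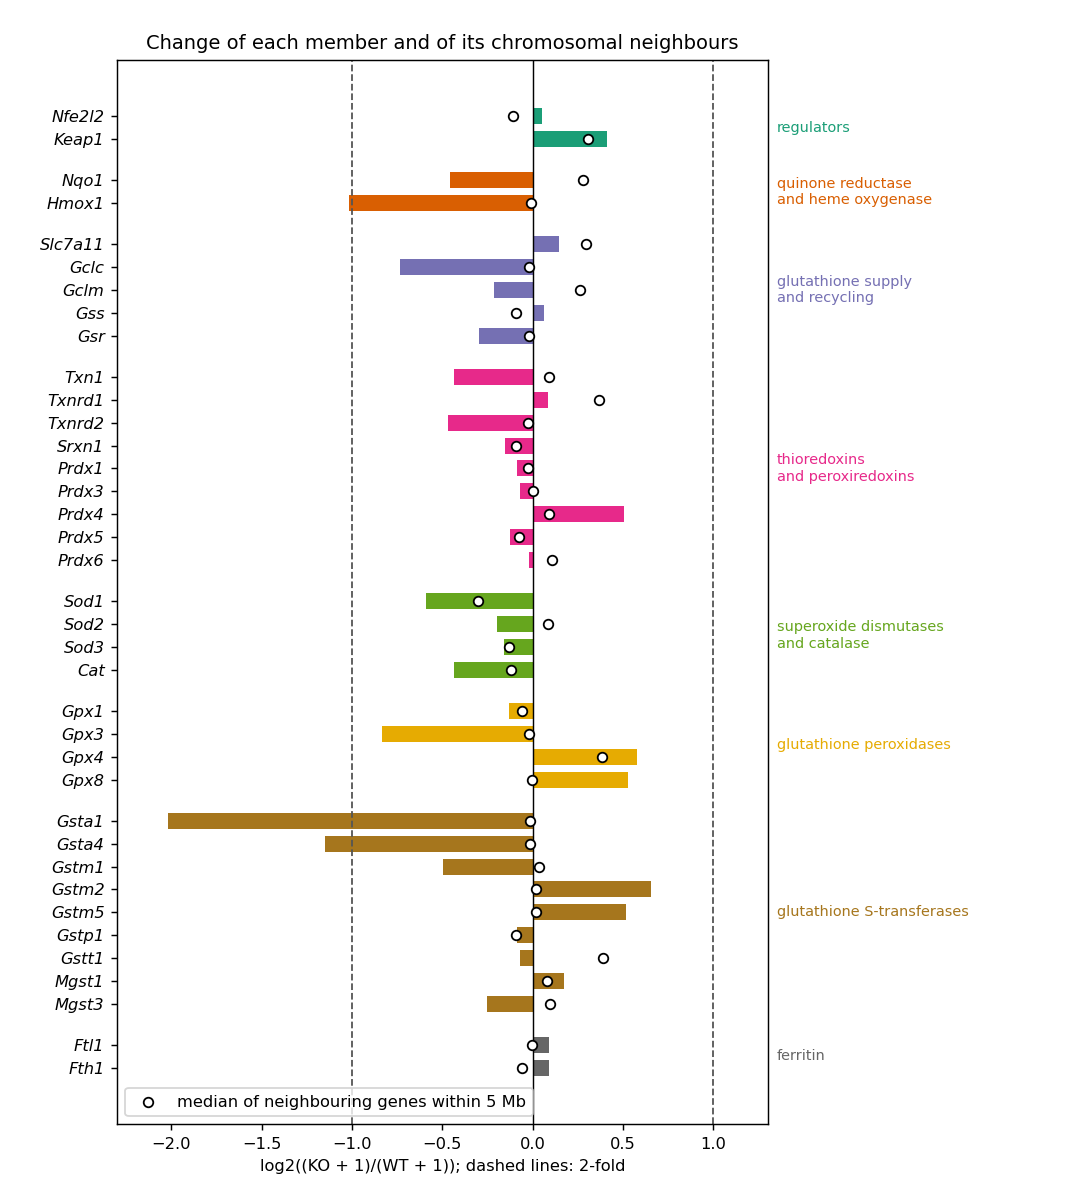
Change of each of the 37 members as bars, colored by role, on the log2((KO + 1)/(WT + 1)) axis, with open circles for the median change of neighboring genes within 5 Mb and dashed lines at 2-fold. For Hmox1, Gsta4 and Gsta1 the bar reaches past -1 while the circle stays near 0, whereas for Keap1, Gpx4 and Sod1 the circle moves with the bar.

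The widest differences were among glutathione S-transferases, which conjugate glutathione to electrophiles, and they did not run in 1 direction. Gsta4, which clears the lipid peroxidation product 4-hydroxynonenal, was 207 FPKM in WT against 92.8 in the library labelled KO, 2.23-fold lower, a change of -1.15. Gsta1, of the same alpha class, was 8.50 and 1.34 FPKM, 6.34-fold lower, a change of -2.02. Gsta2, another alpha-class gene and not one of the 38, was 7.97 and 0.298 FPKM, a change of -2.79. Gsta1 cannot be read as 1 gene with confidence, because 85.2% of the 75-base words of its canonical transcript occur in transcripts of other genes, 29.9% in Gsta2 and 75.3% in Gsta13, whereas no such word of Gsta4 does.

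The alpha-class genes and Gclc are neighbors on chromosome 9. In GRCm39, Gclc runs from 77661797 to 77701770, Gsta4 from 78090056 to 78117763, Gsta1 from 78137927 to 78149966 and Gsta2 from 78238292 to 78263077. Within 1 Mb of Gsta4, a window set after the values were seen, 11 other genes passed the filter. The 8 besides Gclc, Gsta1 and Gsta2 had a median of -0.04, with 3 higher and 5 lower, and 0 of them was more than 2-fold lower. Elovl5, between Gclc and Gsta4, was at 0.09, Fbxo9 at -0.25, and Cgas, next to Gsta2 on its far side, at -0.49. The changes of Gclc, Gsta4, Gsta1 and Gsta2 lay below those of all 8, though the 4 were picked after their values were seen and Gsta1 and Gsta2, which share words, are not independent readings.

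**Figure D4:**
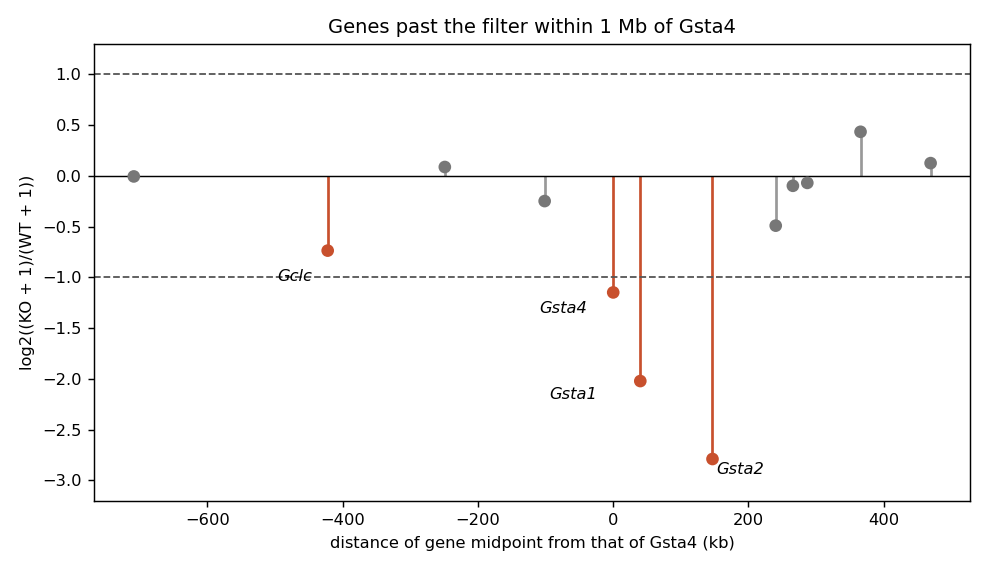
Change of each gene past the filter within 1 Mb of Gsta4, log2((KO + 1)/(WT + 1)), against the distance of its midpoint from that of Gsta4 in kb, with Gclc and the Gsta genes in red and the others in grey, and dashed lines at 2-fold. The 4 red genes are the lowest, from -0.74 for Gclc to -2.79 for Gsta2, and the grey genes lie between -0.49 and 0.44.

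The mu class split instead. Gstm1, its most abundant member here, was 118 FPKM in WT against 83.1 in the library labelled KO, a change of -0.50. Gstm2 was 26.7 and 42.7 FPKM, a change of 0.66, and Gstm5 was 30.5 and 44.1 FPKM, a change of 0.51. The ratio of Gstm1 to Gstm2 was 4.41 in WT and 1.95 in the other library, although the genes sit in 1 cluster on chromosome 3, Gstm5 from 107803137 to 107806005, Gstm2 from 107889004 to 107893785 and Gstm1 from 107919380 to 107925380, and their neighbors had medians of 0.02 to 0.04. Of the 75-base words of Gstm1 13.8% and of Gstm2 24.8% occur in transcripts of other genes, and none of those of Gstm5.

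The remaining transferases changed by -0.25 to 0.17. Gstp1, the pi-class enzyme, was 433 and 407 FPKM, with 51.9% of its words shared with Gstp2. Gstt1, of the theta class, was low at 2.44 and 2.27 FPKM, a change of -0.07 where its chromosome 10 neighbors had a median of 0.39. The membrane-bound Mgst1 was 67.3 and 76.0 FPKM and Mgst3 was 48.2 and 40.3 FPKM.

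Ferritin was among the most abundant RNAs of these cells and barely differed. Ftl1, the light chain, was 6717 FPKM in WT against 7148 in the library labelled KO, and ranked 2 among all genes in WT. Fth1, the heavy chain that oxidizes iron for storage, was 4002 and 4265 FPKM. Both changes were 0.09, and the ratio of Ftl1 to Fth1 was 1.68 in both libraries. Together they held 1.89% of all summed FPKM in WT against 1.99% in the library labelled KO. The estimate for Ftl1 shares 71.3% of its words with other annotated transcripts, mostly the pseudogene Ftl1-ps1.

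Further genes of the same biology, on 5 lists, put the members in context. Of 114 that passed the filter, 9 were more than 2-fold higher and 6 lower, 7.89% and 5.26%, beside 2.84% and 3.43% of all genes, and their median was -0.04. The lists were chosen with earlier results of these data known, so these shares are description only. Some of the genes passed through their value in 1 library alone, Selenop and Nox4 among those higher, Gsta2 and Nos1 among those lower. The 17 partners and controllers of Nrf2 included none past 2-fold in either direction. Maff, a small Maf partner, had the lowest change, -0.87, at 18.4 and 9.59 FPKM, with a neighbor median of -0.40. Sqstm1, which sequesters Keap1, was 411 and 414 FPKM. Both Maff and Sqstm1 were named after their values were seen.

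Of 28 other Nrf2 target genes 19 were lower and 9 higher, with a median of -0.18 and 2 past 2-fold in each direction. All genes past the filter gave 2.84% more than 2-fold higher and 3.43% lower. Cbr3, a carbonyl reductase, was 40.7 FPKM in WT against 17.9 in the library labelled KO, a change of -1.14, on a stretch with a neighbor median of -0.32, and Trim16, a tripartite motif protein, was 20.6 and 8.196 FPKM, a change of -1.23. Tkt, transketolase of the pentose phosphate pathway that feeds NADPH supply, was 30.8 and 86.1 FPKM, a change of 1.46, and Lipg, endothelial lipase, was 6.28 and 13.7 FPKM, a change of 1.01. These 4 lay in both directions.

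Among 40 other glutathione and thiol genes, 17 were higher and 23 lower, with a median of -0.07. Past 2-fold, 2 were higher and 3 lower, where all genes past the filter gave 2.84% and 3.43%. Selenop, a secreted selenium carrier, was 0.781 FPKM in WT against 30.2 in the library labelled KO, a change of 4.13. Cth, which makes cysteine from cystathionine, was 1.32 and 4.45 FPKM, a change of 1.23. Besides Gsta2 and Prdx2, given above, Sesn3, a sestrin, was lower at 3.03 and 0.779 FPKM, a change of -1.18.

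Oxidant sources and iron handling held mostly low genes at their extremes. Of 12 oxidant sources, Nox4, an NADPH oxidase that releases hydrogen peroxide, was 0.610 FPKM in WT against 4.25 in the library labelled KO, a change of 1.71. Loxl1, a lysyl oxidase that forms peroxide while crosslinking matrix, was 15.2 and 42.3 FPKM, a change of 1.42, and Ncf4, a subunit of the phagocyte oxidase, was 1.66 and 4.57 FPKM, a change of 1.06. Nos1, neuronal nitric oxide synthase, was 3.58 and 0.362 FPKM, a change of -1.75. Of 17 genes of iron and heme handling, Slc40a1, the iron exporter ferroportin, was 1.13 and 4.05 FPKM, a change of 1.25, and Bdh2 was 1.51 and 6.21, a change of 1.53, with none more than 2-fold lower.

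**Figure D5:**
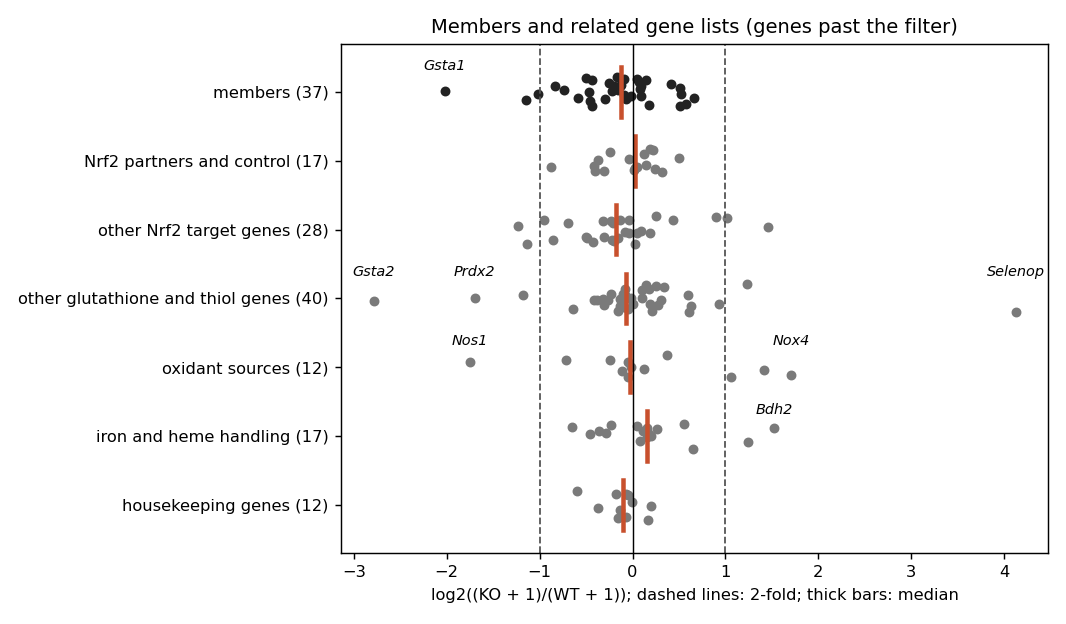
Change of each gene past the filter, log2((KO + 1)/(WT + 1)), in the 37 members, 5 related lists and 12 housekeeping genes, with 1 point per gene, thick bars at the median and dashed lines at 2-fold. The medians lie between -0.18 and 0.16, and the genes farthest out on each side are Gsta2 and Selenop.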

How the data were processed

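Polyadenylated RNA of 2 C2C12 libraries, 1 WT and 1 Gne KO, was analysed, with groups taken from the labelled genotype. Values deposited by the authors, 1 for each symbol, were read as FPKM. No unit is named with them, and FPKM was inferred because they are not whole and their totals differ, although the methods speak of expected counts and TPM. These features do not exclude expected counts, so the unit remains uncertain. Submitters' processing notes list Trim Galore 0.6.6, STAR 2.7.9a and RSEM 1.3.3 with GRCm38, whereas the methods name GRCm39, and which RSEM output was deposited is not given in the sources used here. Sources also differ on the library kit and sequencer. Reads per library are unknown, so no counting interval is given. Among 406 genes between 0.02 and 0.1 FPKM in each library, the ratio of KO to WT was most often 1.13, a hint of unequal depth.

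The 21853 rows included 24 that repeated a symbol, for which the more highly expressed entry was used. Fold changes used a pseudocount of 1 and a mean of at least 1 FPKM. Calls mean more than 2-fold, without a test. Positions came from GENCODE vM39 on GRCm39, matched by symbol for 10170 of 10542 genes; transcripts of that annotation were cut into words of 75 bases to find those shared between genes. Promoter windows came from RefSeq on GRCm38.p6. All members were to be given by role, and from other lists up to 8 genes past 2-fold; other genes were named after their values were seen. Members and lists were chosen with earlier results of these data known. The code was checked on simulated data with large changes planted in well expressed genes. This check does not bear on how reliable the calls are. Software was matplotlib 3.10.9, scipy 1.17.1, pandas 2.3.3, numpy 2.4.6 and Python 3.11.15. Alternatives were other pseudocounts, filters, scaling, subtraction of neighbors and a smaller fold.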

Additional observations from a re-analysis of the deposited data

How the results depend on the processing

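No paired analysis was possible because each line has 1 library, and for that reason none could be left out. Of the members, 3 were more than 2-fold lower and 0 higher. Lower were 4 with a pseudocount of 0.1, which added Gpx3, and 2 with a pseudocount of 5, where Hmox1 stood at -0.99. A mean of at least 5 FPKM also left 2, as Gsta1 no longer passed. No filter, scaling by the median of ratios with a factor of 1.00 and subtraction of the neighbor median left 3, and 0 was higher in each of these 6 settings. At 1.5-fold, chosen after the values were seen, 6 were lower and 1 higher, by construction. The median of -0.13 lay between -0.13 and -0.11. Subtraction of neighbors changed the sign of 3 small changes, Gstp1, Slc7a11 and Txnrd1. The pseudocounts moved Gsta1 to -2.58 or -1.09 and Gpx3 to -1.33 or -0.32.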
